A study of Mus musculus with 13 samples.

Results

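Growth factors that act on lung epithelium, together with their receptors, were followed in mouse lung after breathing 80% oxygen. The 10 genes were Areg, Ereg, Hbegf, Nrg1 and Egfr of the epidermal growth factor (EGF) family, Fgf7, Fgf10 and Fgfr2 of the fibroblast growth factor (FGF) family, and Hgf and Met, the hepatocyte growth factor and its receptor. They were taken by symbol from the count table, and each of the 10 symbols matched a row of the 32544 genes listed. Of the 10, 9 were abundant enough to be among the 12496 genes tested, and Ereg was not. The lungs came from wild-type (WT) male C57BL/6J mice, 7 weeks old when bought, which were kept for 5 days in 21% oxygen (normoxia, n = 7 libraries) or in 80% oxygen (hyperoxia, n = 6 libraries). All lungs were perfused with cold buffer and frozen, and whole-tissue RNA was read by Quant-seq, which counts transcripts from their 3′ ends. The comparison asks how gene expression in the lung differs between these oxygen levels. The labels do not say that each library is a separate mouse, so the p-values measure the spread between these libraries.

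The EGF-family ligands are made as membrane-bound precursors, are cut loose by proteases, and bind receptors of the ErbB group, of which EGFR is the first. Amphiregulin (Areg), epiregulin (Ereg) and heparin-binding EGF-like growth factor (Hbegf) bind EGFR, and neuregulin 1 (Nrg1) binds ErbB3 and ErbB4. FGF7 (keratinocyte growth factor) and FGF10 are made by mesenchymal cells and act on a splice form of FGFR2 in the epithelium, where FGF10 is needed for lungs to form. HGF is likewise largely mesenchymal, is activated by proteolysis, and acts through the receptor tyrosine kinase MET. In the lung all of these pathways are known for driving epithelial growth, migration and repair.

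Areg and Ereg are neighbours on chromosome 5, in a run of EGF-family genes. RefSeq places Ereg at chr5:91074617-91093649 and Areg at chr5:91139599-91148432 (GRCm38.p6, both on the plus strand), and the gap between the genes is 46.0 kb. Epgn (epigen) lies 39.4 kb before Ereg, and Btc (betacellulin) lies 209 kb beyond Areg on the other strand. The other members lie apart: Hgf at chr5:16553495-16619439, Met at chr6:17463349-17573980, Fgfr2 at chr7:130162451-130266808, Nrg1 at chr8:31807452-32891609, Egfr at chr11:16752203-16913907, Fgf7 at chr2:126034658-126091185 and Fgf10 at chr13:118714699-118792573. Counting was not stated to use strand, and the spans of Ereg, Nrg1, Egfr, Fgf7 and Fgf10 overlap an annotated gene on the opposite strand, while those of Nrg1 and Hgf overlap one on the same strand. These are overlaps of whole gene spans, introns included, and whether the partners share transcript sequence with the members was not tested. No annotated gene overlaps the RefSeq spans of Areg, Hbegf, Fgfr2 or Met. The span of Fgfr2 in GENCODE is longer (chr7:130162451-133123350), and overlaps with that longer span were not searched.

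Promoter windows of 300 bases, from 250 before to 50 after the start of transcription, were found in RefSeq (GRCm38.p6) for 7 of the 10 genes. They were searched on both strands for the letters TGACGTCA (a cyclic AMP response element, CRE), TGANTCA (the AP-1 motif), TTCNNNGAA (a STAT motif) and TATAAA (the core promoter box), which do not overlap in the matches shown. The motifs were chosen after the sequences had been read. Of 32851 windows of this length, 1.79% held the CRE letters, 7.81% those of AP-1, 8.30% those of STAT and 13.6% those of the core box. A match is a description of the letters and not evidence that a factor binds there. Ereg, Hbegf and Nrg1 had no promoter entry, so Areg was the only member higher in hyperoxia that was searched. Matches were found for Areg and Met among the 7 genes, and these stretches are shown because Areg rose and Met fell, with the matched letters in capitals.
Areg, chr5:91139518-91139595, plus strand: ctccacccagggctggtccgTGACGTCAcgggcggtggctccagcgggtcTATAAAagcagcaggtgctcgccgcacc
Met, chr6:17463883-17463930, plus strand: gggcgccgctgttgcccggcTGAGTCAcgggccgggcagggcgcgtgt
In Areg the CRE letters begin 61 bases before the start and those of the core box 31 bases before it. In Met the AP-1 letters begin 54 bases before the start of the listed transcript. They lie at chr6:17463903-17463909, inside the Met span given above, which begins at chr6:17463349.

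Total counts ran from 1607111 to 4540288 per library. Values are given as CPM (counts scaled to a common library total) after TMM scaling, edgeR's correction for library composition, and 1 read was worth 0.219 to 0.613 CPM. The number of libraries and counting error limit the precision, and reads without molecular identifiers are not independent molecules. Hyperoxia replicate 1 stood apart, with correlations of log2 CPM of 0.721 to 0.833 with the other 12 libraries, against 0.854 to 0.967 among those 12. Its surfactant gene Sftpc was at 32.7 CPM, against 666 to 2915 in the other 5 hyperoxic libraries, while its Cldn18, an epithelial junction gene, was at 1682 CPM, against 966 to 1363. The 10 genes are therefore given with and without it. Of the 16 genes named from the pathway lists as rising or falling, other than Sulf1, 16 were called in the same direction without it. Library names fall into 2 stretches of letters, B to M (5 normoxic and 3 hyperoxic libraries) and O to S (2 and 3), and the labels do not say what the letters mean.

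The EGF-family ligands Areg, Hbegf and Nrg1, and the untested Ereg by its reads, were higher in hyperoxia, while the receptors Met and Fgfr2 and the ligands Fgf7 and Hgf were lower. Of the 9 members tested, 3 rose (Areg, Hbegf and Nrg1) and 4 fell, at an adjusted p under 0.05 in edgeR's quasi-likelihood test over all 12496 genes. Among all genes tested, 22.6% were called, 11.8% as higher and 10.8% as lower. The members were chosen with earlier results of these data known, so these shares are a description. Egfr and Fgf10 did not pass. The median log2 fold change of the 9 was -0.24, beside -0.03 for all genes. Without hyperoxia replicate 1 the counts were again 3 higher and 4 lower. Of the 10 members, 6 had no overlap between the groups (Areg, Ereg, Hbegf, Fgf7, Fgfr2 and Met), 3 of them higher and 3 lower in hyperoxia. Leaving aside Ereg, this was 5 of the 9 tested members, and of all genes tested 10.8% had no overlap, 5.6% as higher and 5.23% as lower. Without hyperoxia replicate 1, Nrg1 was added, making 6 of the 9, and the share of all genes tested was 15.4%. All 9 tested members exceeded the filter's level of 3.36 CPM in at least 6 of 7 normoxic libraries, so none was tested only because of its level in hyperoxia. With limma on the deposited log values, which have no composition scaling, the median of all genes was -0.16, and 1097 genes were called higher and 1729 lower, against 1473 and 1346 here. Under library size alone that median was -0.10.

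**Figure D1:**
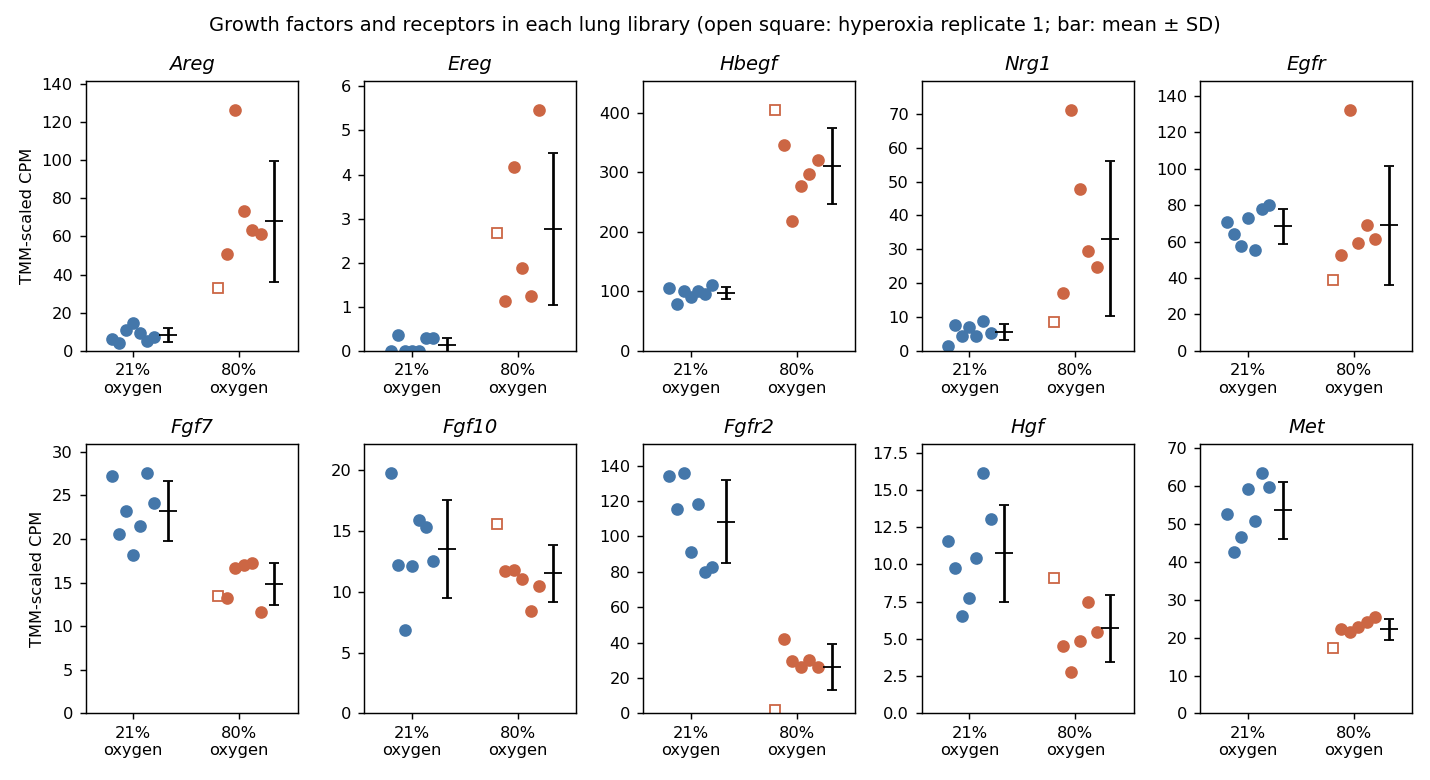
TMM-scaled CPM (vertical axis, from 0) of each of the 10 genes in the 7 libraries from 21% oxygen (blue) and the 6 from 80% oxygen (orange), with hyperoxia replicate 1 as an open square and bars for the mean ± SD. All hyperoxic points lie above the normoxic ones for Areg, Ereg and Hbegf and below them for Fgf7, Fgfr2 and Met, while the points of Egfr and Fgf10 are mixed.

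Areg showed the largest fold change of the tested members. Its level was 4.19 CPM in the lowest, 7.14 in the median and 14.5 in the highest normoxic library (mean 8.21 ± 3.64, SD, n = 7). In hyperoxia the lowest library had 32.7 CPM, the median 62.3 and the highest 126 (68.1 ± 31.8, n = 6). Every hyperoxic library was above every normoxic one, and replicate 1 was the lowest of the hyperoxic libraries and replicate 3 the highest. Raw counts behind these levels were 12 to 43 in normoxia and 61 to 364 in hyperoxia. The difference was 8.31-fold, a log2 fold change of 3.06 (SE 0.32, 95% interval 2.37 to 3.74), with an adjusted p of 1.04e-05 in edgeR's quasi-likelihood test. By size of log2 fold change Areg ranked 18 from the top of 12496 genes. Without hyperoxia replicate 1 the value was 3.22.

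Ereg, the neighbour of Areg, was close to undetected in normoxia and sparse in hyperoxia. It had 3 reads in all 7 normoxic libraries together, 4 of which had none, and 56 reads in the 6 hyperoxic libraries. The lowest hyperoxic library held 1.13 CPM (3 reads), the median 2.28 and the highest, replicate 6, 5.47 CPM (25 reads), against at most 0.349 CPM in normoxia. All 6 hyperoxic libraries were thus above all 7 normoxic ones. Pooled over libraries the ratio was 19.9, with an exact 95% counting interval of 6.48 to 99.5, which covers counting error only. The mean difference was 2.63 CPM, and a two-sided exact permutation test over the 1716 assignments of libraries gave p = 0.00117, unadjusted and the smallest it can give, in 1 such test made. Without hyperoxia replicate 1 the difference was 2.65 CPM (exact permutation p = 0.00253).

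Hbegf had the smallest adjusted p of the 9 tested members. Normoxic libraries ran from 79.0 CPM through a median of 99.8 to 111 (97.2 ± 10.4, n = 7). The hyperoxic ones ran from 218 through 309 to 405 CPM (310 ± 63.3, n = 6), with no overlap. Replicate 1, the lowest hyperoxic library for Areg and Nrg1, was the highest for Hbegf, and replicate 3, the highest for Areg and Nrg1, was the lowest. The log2 fold change was 1.67 (SE 0.15, 95% interval 1.36 to 1.99), or 3.19-fold, with an adjusted p of 1.66e-06 in edgeR's quasi-likelihood test. It was 1.60 without replicate 1.

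Nrg1 rose with a wider spread than the other ligands (pooled SD of 0.88 on the log2 scale). Its normoxic levels ran from 1.49 CPM (4 reads) through 5.35 to 8.64 (5.54 ± 2.46, n = 7), and the hyperoxic ones from 8.58 through 27.0 to 71.2 CPM (33.1 ± 22.9, n = 6). The groups touched only through hyperoxia replicate 1, at 8.58 CPM, and the other 5 hyperoxic libraries, at 17.0 CPM or more, lay above all 7 normoxic ones. This was a log2 fold change of 2.56 (SE 0.44, 95% interval 1.63 to 3.48), or 5.89-fold, with an adjusted p of 5.94e-04 in edgeR's quasi-likelihood test, ranked 40 from the top. Leaving out hyperoxia replicate 1 gave 2.76, and leaving out replicate 3, the highest library, gave 2.21.

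Lymphoid cells and mast cells can also make amphiregulin, and their markers were read beside these ligands. Of 4 tested markers of type 2 innate lymphoid and T cells, 0 were higher and 2 lower in hyperoxia, with summed levels of 112 to 152 CPM in normoxia and 59.9 to 135 in hyperoxia. The mast cell protease Cpa3 reached 2.08 CPM in the highest normoxic library and 0.938 CPM in the highest hyperoxic one, and Mcpt8, a basophil protease, reached 0.613 and 0.313 CPM. Mcpt4 and Ms4a2, also on this list, reached at most 1.75 CPM. Gata2, a transcription factor of mast cells that endothelium also expresses, was the one tested gene of the list, at 60.6 to 87.6 CPM in normoxia and 10.7 to 72.9 in hyperoxia (log2 fold change -0.57, SE 0.28, edgeR adjusted p = 0.157). Hyperoxia replicate 1 held its lowest value, and without that library the log2 fold change was -0.35. Which cells carried the ligand transcripts was not tested.

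Egfr, the receptor for Areg, Ereg and Hbegf, did not pass the test. Normoxic libraries ran from 55.1 CPM through 70.6 to 80.0 (68.3 ± 9.72, n = 7) and hyperoxic ones from 38.6 through 60.3 to 132 (68.9 ± 32.8, n = 6). The hyperoxic spread was the wider: replicate 3 lay above all normoxic libraries, and replicates 1 and 2 below all of them. The log2 fold change was 0.01 (SE 0.23, 95% interval -0.47 to 0.49, adjusted p = 0.981 in edgeR's quasi-likelihood test), so a change of up to about the interval's bounds in either direction was not resolved. Its sign changed under other settings, to -0.26 without hyperoxia replicate 3, and the value was 0.15 without replicate 1.

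Of the other ErbB receptors, 2 were tested and 1 of them fell. Erbb2, the co-receptor without a ligand of its own, fell by 0.53 on the log2 scale (SE 0.17, edgeR adjusted p = 0.0350), from 18.3 to 31.2 CPM in normoxia to 12.5 to 17.8 in hyperoxia, with no overlap. This call was lost when any of 10 of the 13 libraries was left out (all but normoxia replicate 1 and hyperoxia replicates 1 and 3), with adjusted p of 0.0570 to 0.0960. Erbb3, which binds Nrg1, had a log2 fold change of -0.62 (SE 0.39, edgeR adjusted p = 0.283), with 6.84 to 12.1 CPM in normoxia and 0.536 to 10.8 in hyperoxia. The value was -0.40 without hyperoxia replicate 1, which held the lowest level, and -0.84 without hyperoxia replicate 4. Erbb4, the other Nrg1 receptor, was not tested, with at most 1.49 CPM in normoxia and 0.625 in hyperoxia.

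**Figure D2:**
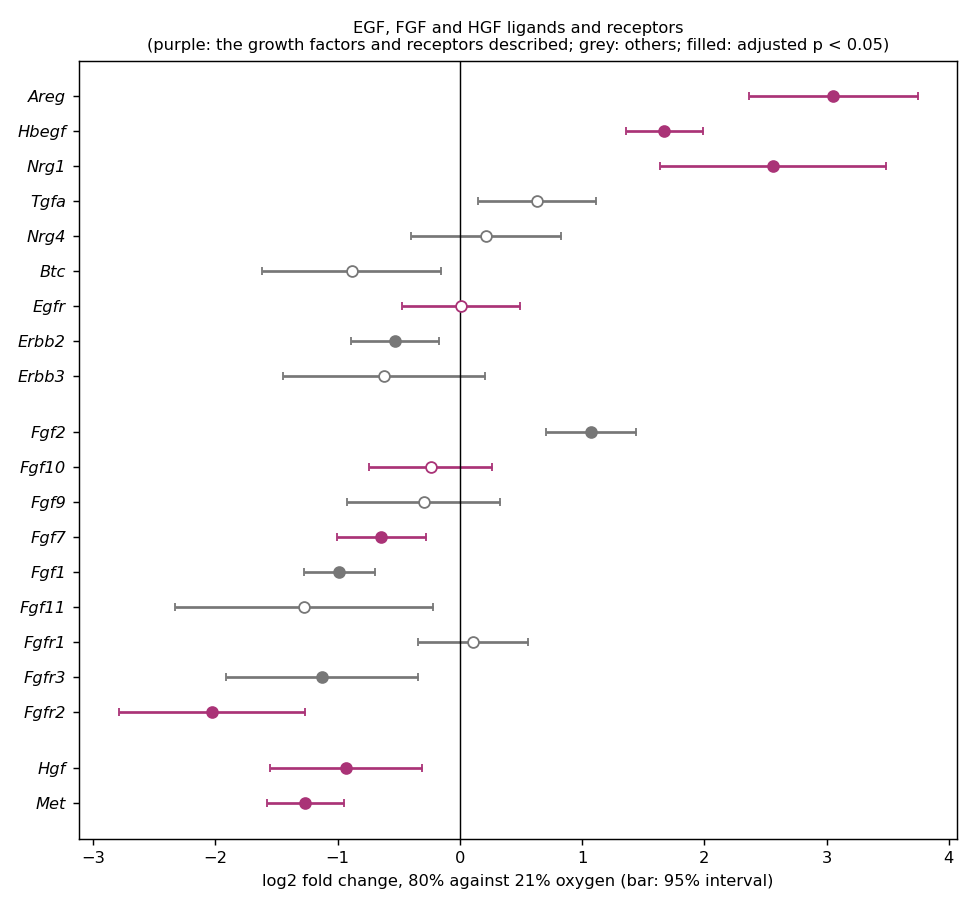
Log2 fold change of 80% against 21% oxygen (horizontal axis, bars for the 95% interval) of the tested ligands and receptors of the 3 families, with the genes described here in purple, other family genes in grey and filled points for adjusted p under 0.05. Areg, Nrg1 and Hbegf stand right of 0 and Fgfr2, Met, Hgf and Fgf7 left of it, with Egfr at 0.01.

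Of the other EGF-family ligands, 0 of 3 tested passed edgeR's test, with 1 higher and 1 lower at an unadjusted p under 0.05. DESeq2 called 1 of them higher and 0 lower, and limma-voom 1 higher and 1 lower. Tgfa (transforming growth factor alpha) had a log2 fold change of 0.63 (SE 0.23, edgeR adjusted p = 0.0578) and Btc, the far neighbour of Areg, one of -0.89 (SE 0.35, adjusted p = 0.0789). Without hyperoxia replicate 1 both passed, Tgfa at 0.72 (edgeR adjusted p = 0.0237) and Btc at -1.18 (adjusted p = 0.00756), and Tgfa also passed without hyperoxia replicate 2 (adjusted p = 0.0409). Epgn, the near neighbour of Ereg, reached at most 0.279 CPM in any library. The genes that release the ligands or restrain the receptor were examined as lists. Among 6 tested genes of ligand shedding, 1 rose and 0 fell: Timp3, an inhibitor of the metalloproteases that cut ligands loose, rose by a log2 fold change of 0.81 (SE 0.14, edgeR adjusted p = 8.24e-04), from 120 to 197 CPM to 228 to 357 CPM without overlap. Adam17, the main sheddase of these ligands, had a log2 fold change of -0.06 (SE 0.15, adjusted p = 0.816), with a sign that changed when some libraries were left out. Among 8 tested inhibitors of EGF receptors, 1 rose and 0 fell, Socs5 with a log2 fold change of 0.72 (SE 0.18, adjusted p = 0.00971). The feedback inhibitor Errfi1 had 0.33 (SE 0.27, adjusted p = 0.427), with 0.16 without hyperoxia replicate 4 and 0.51 without hyperoxia replicate 1. Over these 4 lists the median was 0.21.

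Fgfr2, the receptor of Fgf7 and Fgf10, fell furthest of the members. Normoxic levels ran from 80.0 CPM through 116 to 136 (108 ± 23.6, n = 7), and hyperoxic ones from 2.14 through 28.0 to 42.3 (26.2 ± 13.2, n = 6). All hyperoxic libraries were below all normoxic ones, and replicate 1, with 4 reads, was far below the other 5, which held 26.4 to 42.3 CPM. Its log2 fold change was -2.03 (SE 0.36, 95% interval -2.79 to -1.27), or 4.09-fold lower, with an adjusted p of 7.85e-04 in edgeR's quasi-likelihood test, and 111 from the lowest in rank. Without replicate 1 it was -1.79, with an adjusted p of 2.72e-06. The reads stand at the 3′ end of the gene and do not separate the splice form that binds Fgf7 from the other.

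Fgf7 fell by less. It ran from 18.2 CPM through 23.2 to 27.6 in normoxia (23.2 ± 3.46, n = 7) and from 11.6 through 15.0 to 17.2 in hyperoxia (14.8 ± 2.39, n = 6), without overlap but with little room between the groups. The log2 fold change was -0.64 (SE 0.17, 95% interval -1.01 to -0.28, edgeR adjusted p = 0.0133), or 1.56-fold lower, and it was -0.60 without hyperoxia replicate 1. Fgf10 ran from 6.87 CPM through 12.5 to 19.8 in normoxia (13.5 ± 4.03, n = 7) and from 8.44 through 11.4 to 15.5 in hyperoxia (11.5 ± 2.33, n = 6). All 6 hyperoxic values of Fgf10 lay inside the normoxic range, and the log2 fold change of -0.24 (SE 0.24, 95% interval -0.74 to 0.27, edgeR adjusted p = 0.516) did not pass. Without hyperoxia replicate 1 the value for Fgf10 was -0.32, and it ran from -0.33 to -0.097 when single libraries were left out. Markers of lung fibroblasts, which make both ligands, moved both ways: of 6 tested 1 was higher (Pdgfra) and 2 lower (Npnt and Inmt), and their summed level was 2363 to 3423 CPM in normoxia and 2495 to 3095 in hyperoxia. The call of Npnt was lost without normoxia replicate 2 or hyperoxia replicate 3, 4 or 6, and that of Inmt without normoxia replicate 1 or hyperoxia replicate 3 or 5, at adjusted p of 0.0532 to 0.0587 in edgeR's test.

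Other FGF ligands moved in both directions. Fgf2, a broadly acting ligand, rose by a log2 fold change of 1.07 (SE 0.17, edgeR adjusted p = 4.11e-04), from 12.9 to 22.6 CPM in normoxia to 30.0 to 49.0 in hyperoxia. Fgf1, which binds all FGF receptors, fell by 0.99 on the log2 scale (SE 0.14, adjusted p = 1.10e-04), from 132 to 188 CPM to 65.4 to 92.7. Neither overlapped between the groups, and these were the 2 called of 4 tested. Among 7 tested receptors and binding proteins, 1 rose and 1 fell. Flrt3, a membrane protein that binds FGF receptors, rose by 0.59 (SE 0.17, adjusted p = 0.0222). Fgfr3 fell by 1.13 on the log2 scale (SE 0.37, edgeR adjusted p = 0.0376), and the call was lost without normoxia replicate 1, 2, 3 or 5 or hyperoxia replicate 3 or 5, with adjusted p of 0.0530 to 0.0723. Fgfr1 had 0.11 (SE 0.21, edgeR adjusted p = 0.759), with a sign that changed under other settings, and Fgfr4 was not tested, at 1.01 to 4.11 CPM in normoxia and 0 to 2.19 in hyperoxia.

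Genes that FGF receptors switch on, or that restrain them, also moved both ways, with 1 of 9 tested higher and 2 lower (median -0.53). Etv5, a transcription factor induced by FGF signalling, fell by 1.77 on the log2 scale (SE 0.46, edgeR adjusted p = 0.0119), from 16.2 to 119 CPM in normoxia to 5.91 to 35.1 in hyperoxia, with overlap. Il17rd, an inhibitor of FGF receptor signalling, fell by 0.91 (SE 0.28, adjusted p = 0.0295), a call lost without normoxia replicate 1, 2 or 3 or hyperoxia replicate 2 or 5 (adjusted p of 0.0538 to 0.0675). Spry4, a feedback inhibitor of receptor tyrosine kinases, rose by 1.40 (SE 0.37, adjusted p = 0.0130), from a median of 8.07 CPM to one of 29.0 CPM. Its relative Spry2 had -0.85 (SE 0.38, edgeR adjusted p = 0.123) and passed without hyperoxia replicate 3 (-1.15, adjusted p = 0.0345). Dusp6, a phosphatase induced by the same pathway, had -0.01 (SE 0.32, edgeR adjusted p = 0.994), which became 0.22 without hyperoxia replicate 1.

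Met, the HGF receptor, fell with a smaller spread than any other member (pooled SD of 0.20 on the log2 scale). Normoxic levels ran from 42.6 CPM through 52.6 to 63.6 (53.6 ± 7.62, n = 7) and hyperoxic ones from 17.2 through 22.6 to 25.4 (22.2 ± 2.82, n = 6). The groups stood well apart, with 25.4 CPM in the highest hyperoxic library and 42.6 in the lowest normoxic one. Met thus had a log2 fold change of -1.26 (SE 0.15, 95% interval -1.58 to -0.95), or 2.40-fold lower, with an adjusted p of 2.35e-05 in edgeR's quasi-likelihood test. It was -1.19 without hyperoxia replicate 1.

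Hgf fell near the threshold. Its levels were low, from 6.54 CPM through 10.4 to 16.2 in normoxia (10.8 ± 3.25, n = 7) and from 2.78 through 5.16 to 9.11 in hyperoxia (5.71 ± 2.26, n = 6), with 8 to 25 reads in a hyperoxic library. The groups overlapped, and 4 of 6 hyperoxic libraries were below all normoxic ones. The log2 fold change was -0.93 (SE 0.29, 95% interval -1.56 to -0.31), or 1.91-fold lower, with an adjusted p of 0.0312 in edgeR's quasi-likelihood test. Leaving out normoxia replicate 1, 2, 5, 6 or 7 or hyperoxia replicate 2, 3, 4 or 6 raised the adjusted p to between 0.0530 and 0.0774, while without hyperoxia replicate 1 the log2 fold change was -1.08 (adjusted p = 0.0100).

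Of 8 other tested genes of the HGF system, 1 rose and 0 fell. Plat, tissue plasminogen activator, a protease known mainly for activating plasminogen and listed here as a protease able to cut the HGF precursor, rose by a log2 fold change of 2.53 (SE 0.43, edgeR adjusted p = 5.46e-04). Its normoxic libraries held 8.62 to 19.0 CPM and 5 hyperoxic ones 48.8 to 118 CPM, while hyperoxia replicate 1 held 7.51 CPM. Without that library the log2 fold change was 2.78. Plau, the urokinase with the same activities, ranged from 109 to 242 CPM in normoxia and from 2.14 to 287 in hyperoxia (log2 fold change -0.88, SE 0.68, adjusted p = 0.389). The value for Plau moved with the setting, to -1.5 without hyperoxia replicate 5, -0.60 without hyperoxia replicate 1, -1.97 with the replicate block, -2.15 with limma-voom (adjusted p = 0.0687) and -2.21 with limma on the deposited values (adjusted p = 0.0750), and passed in none of these. The sister receptor Mst1r was not tested, with at most 2.80 CPM in any library.

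FGFs, HGF and Hbegf bind heparan sulphate, and 15 genes for its core proteins and modifying enzymes were tested. Of these 1 rose and 5 fell (median -0.30), so 40% were called, beside 22.6% of all genes. Ndst1, which begins sulphation of the chains, fell by 1.34 on the log2 scale (SE 0.17, edgeR adjusted p = 4.4e-05), from 98.2 to 138 CPM to 33.8 to 59.0. Hs2st1, a sulphotransferase, fell by 0.82 (SE 0.15, adjusted p = 9.49e-04). The core proteins Sdc2 (a syndecan) and Gpc3 (a glypican) fell by 0.96 (SE 0.17, adjusted p = 6.76e-04) and 0.67 (SE 0.15, adjusted p = 0.00459). Sulf2, which removes sulphate outside the cell, rose by 0.53 (SE 0.12, edgeR adjusted p = 0.00615), while its relative Sulf1, the fifth gene that fell, had -0.60 (SE 0.21, adjusted p = 0.0455). The Sulf1 call was lost with DESeq2 (adjusted p = 0.0519), which called 4 of the list lower, and in edgeR with median-ratio size factors (0.0808) or when any library but hyperoxia replicate 1 was left out (adjusted p of 0.0789 to 0.132), so that 40% rests in part on it. Over all 9 lists, 7 of 62 tested genes rose and 10 fell, or 27.4% called. Leaving out normoxia replicate 2 or 3 brought the number that fell to 6, and leaving out hyperoxia replicate 1 gave 10 higher and 13 lower.

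**Figure D3:**
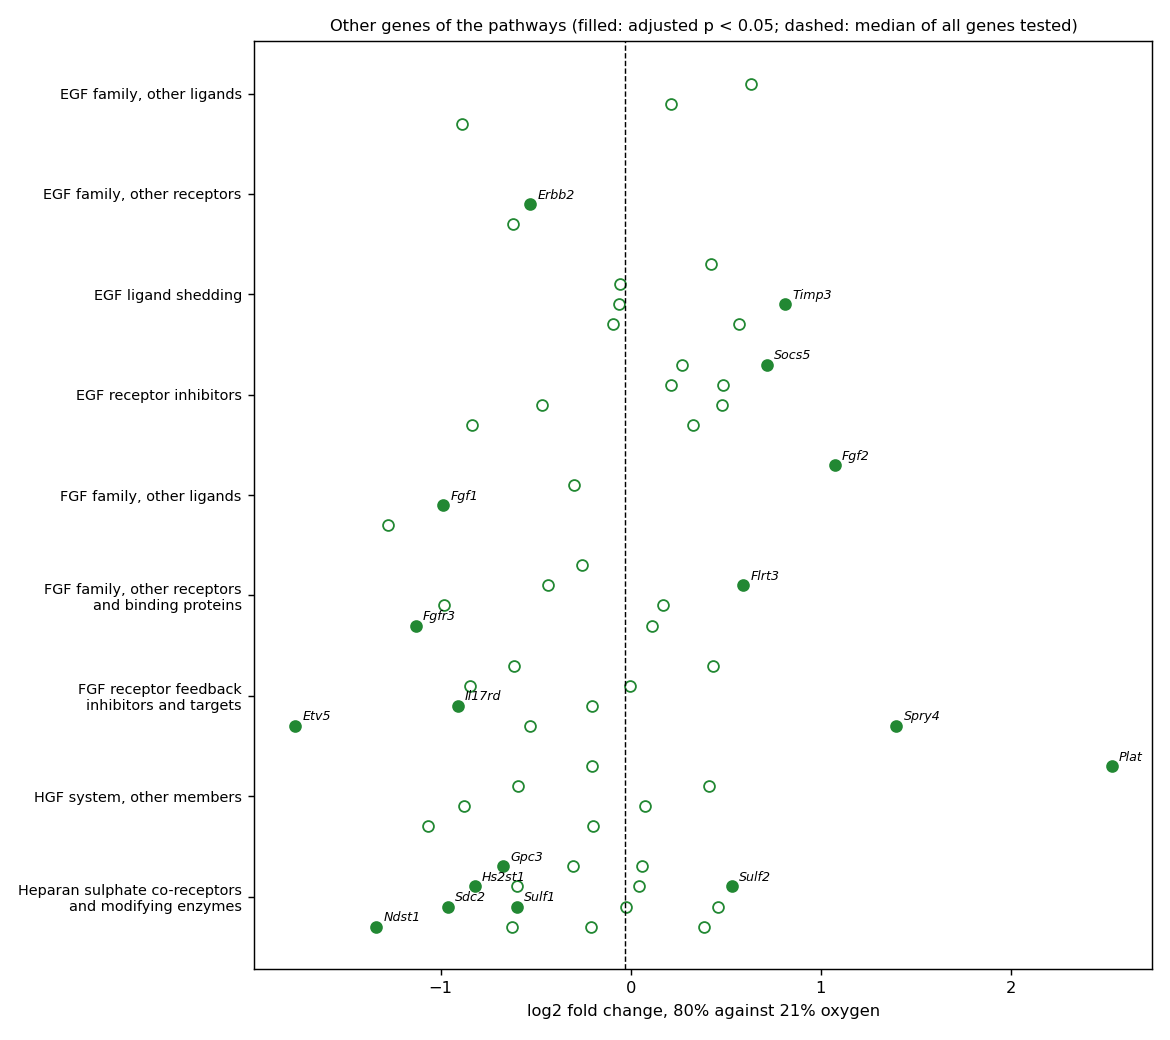
Log2 fold change of 80% against 21% oxygen (horizontal axis) of the 62 tested genes in 9 lists of the EGF, FGF, HGF and heparan sulphate systems, 1 point a gene, filled and named where adjusted p was under 0.05, with a dashed line at the median of all genes, -0.03. Filled points number 7 to the right and 10 to the left of 0, and 5 of those to the left are in the heparan sulphate list.

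Markers of the epithelium that bears Fgfr2 and Met were read beside these receptors. Whole lung was sequenced, in which fewer cells of a type and less RNA in each of them cannot be told apart. Of 8 alveolar type 2 markers 6 were lower and 0 higher (median -1.71), and their sum ran from 12488 to 23354 CPM in normoxia and from 3213 to 6958 in hyperoxia. Sftpc fell by 2.72 on the log2 scale (edgeR adjusted p = 0.00418) and Abca3, the surfactant lipid transporter, by 1.27 (adjusted p = 1.92e-05). Airway markers were lower in 2 of 4 (median -2.0), with Scgb1a1, the club cell secretoglobin, at -2.96 (adjusted p = 0.00188). Summed airway markers were 14458 to 53111 CPM in normoxia, 184 CPM in hyperoxia replicate 1 and 3234 to 10041 in the other 5 hyperoxic libraries. Without replicate 1, edgeR called 6 of 8 alveolar type 2 markers (median -1.61) and 3 of 4 airway markers (median -1.74) lower. The pan-epithelial list, in contrast, summed to 1383 to 1800 CPM in normoxia and 1341 to 1886 in hyperoxia, with 1 of 5 higher (Krt18, a call lost with limma-voom at adjusted p = 0.0567, limma on deposited values at 0.116 and the replicate block at 0.184) and 0 lower, and alveolar type 1 markers had 0 of 6 higher and 1 lower (median 0.02). Most of the pan-epithelial sum was Cldn18, at 1106 to 1548 CPM in normoxia and 966 to 1682 in hyperoxia. Smooth muscle and pericyte markers summed to 234 to 275 CPM in normoxia and 231 to 473 in hyperoxia, with 1 of 5 (Acta2, a call lost with the replicate block at adjusted p = 0.0532) higher. Of the remaining lists, 1 of 5 endothelial, 1 of 3 mesothelial, 3 of 6 alveolar macrophage and 3 of 6 monocyte and macrophage markers were lower, and 0 were higher. When hyperoxia replicate 1 was left out, edgeR called 2 of 5 pan-epithelial markers higher, 1 of 5 endothelial markers higher and 2 lower, 2 of 4 mesothelial markers lower, 1 of 6 alveolar macrophage markers higher and 2 lower, and 4 of 6 monocyte and macrophage markers lower. In 8 of the 14 lists the counts were the same without it. Of 4 neutrophil markers 0 were called by edgeR, DESeq2 or limma-voom, and 0 had an unadjusted p under 0.05. All 4 B cell markers fell (median -2.04). The part of these shifts in the falls of Fgfr2, Met, Fgf7 and Hgf was not tested.

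**Figure D4:**
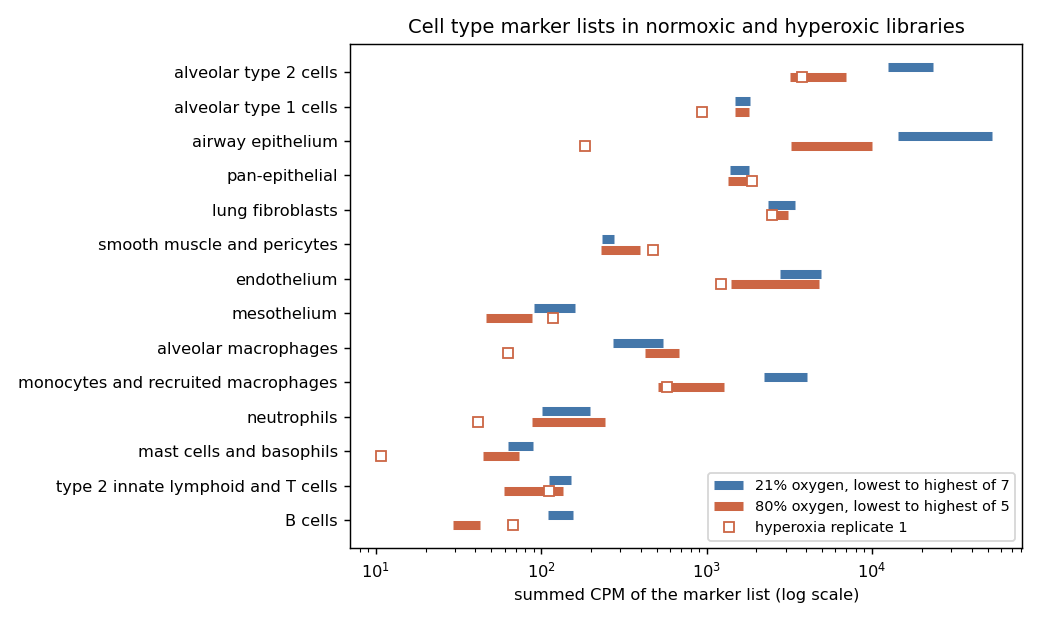
Summed CPM (horizontal axis, log scale) of 14 cell type marker lists, as bars from the lowest to the highest of 7 libraries from 21% oxygen (blue) and of 5 from 80% oxygen (orange), with hyperoxia replicate 1 as an open square. The bars of alveolar type 2 cells, airway epithelium, mesothelium, monocytes and B cells do not overlap, while those of the pan-epithelial list do.

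The 7 called members and Ereg differed in the same direction within both stretches of library letters. The difference in mean log2 CPM of Areg was 2.74 within B to M and 3.32 within O to S, that of Hbegf 1.72 and 1.52, and that of Nrg1 2.16 in both. Met differed by -1.28 and -1.33, Fgf7 by -0.59 and -0.75, and Hgf by -0.79 and -1.22. Fgfr2 had -2.95 within B to M, which holds hyperoxia replicate 1, and -1.54 within O to S, and without that replicate the first value was -1.72. Areg, Ereg, Hbegf, Nrg1, Fgf7, Fgfr2 and Met had no overlap between the oxygen levels inside either stretch. For all of these but Nrg1 this follows from the lack of overlap over all libraries. Within O to S, with few libraries, Egfr, Fgf10 and Hgf did not overlap either, while within B to M they did. The sign of Egfr (0.02 and -0.32) and of Fgf10 (0.03 and -0.45) differed between the stretches. Without hyperoxia replicate 1 the B to M value was 0.39 for Egfr and -0.10 for Fgf10, which then had the same sign in both stretches. These differences within a stretch were not tested.

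**Figure D5:**
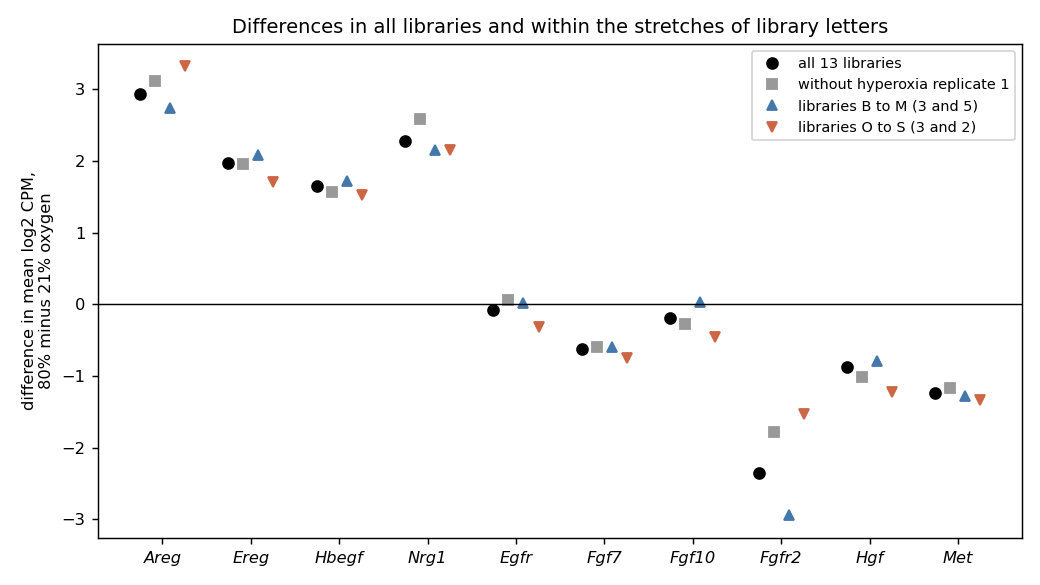
Difference in mean log2 CPM, 80% minus 21% oxygen (vertical axis), of each of the 10 genes over all 13 libraries (black), without hyperoxia replicate 1 (grey), and within libraries B to M (blue) and O to S (orange), the legend giving hyperoxic and normoxic libraries in that order. The 4 EGF-family ligands lie above 1.5 in each, Met between -1.17 and -1.33, and Fgfr2 spreads from -1.54 to -2.95.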

How the data were processed

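Quant-seq 3′ libraries of lung from 7 samples in normoxia and 6 in hyperoxia were analysed from whole-number counts per gene symbol, deposited by the authors, who quantified reads with kallisto in the BioJupies pipeline (mm10 per the submitters' processing notes). The annotation and any use of strand are not given in the sources used here. The authors also deposited log10 values. These equal log10 of CPM plus 1 by library total, to within 8.88e-16, and were used only in an alternative. All columns had a sample, and 0 rows named no gene.

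The test was edgeR 4.0.16's quasi-likelihood test (glmQLFit, glmQLFTest, under R 4.3.3) on counts with TMM factors. Of 32544 genes, filterByExpr kept 12496, with Benjamini-Hochberg adjustment over all of them and a threshold of 0.05. Standard errors were derived from the fold change and F statistic. Log2 CPM used a prior count of 2. Ereg, under the filter, was tested by exact permutation. The fits were tested on simulated data. These had no outlying library and less spread between libraries than the data here, so the test does not cover those conditions. Of 36 pairs of libraries within groups, none agreed within sampling noise (smallest chi-square per gene 3.79). The members, lists and markers were chosen with earlier results of these data known. Named were all members, the other receptors of the families, and up to 5 called genes with the smallest adjusted p in each list. Others were named as examples after their values were seen, and went through the same alternatives. The gene Nrdc was counted under its older symbol Nrd1. Positions and promoters are from RefSeq (GRCm38.p6), and gene overlaps are those of GENCODE genes, on the same build, with the RefSeq spans of the members. Alternatives were DESeq2 1.42.0, limma-voom and limma (3.58.1) on log2 values made from the deposited log10 ones, library size alone, median-ratio size factors, no filter, a minimum of 10 counts per library, a block for replicate number, a term for the letter stretch, and leaving out each library.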

Additional observations from a re-analysis of the deposited data

Results flagged for a closer look

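In 109 groups of libraries (each gene named in the text that had a read, and the total count, in each oxygen level), 13 held a library far from the others by Dixon's test at the 95% level. Chance alone gives about 1 in 20 groups. Each value is a library's distance from its nearest neighbour as a share of the group's range, on the log2 scale.

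In 7 of the 13, hyperoxia replicate 1 lay below the rest of its group. In Fgfr2 it stood at a distance of 0.830, at 2.14 CPM against 26.4 to 42.3 CPM in the other 5. In Plat the distance was 0.672, at 7.51 CPM against 48.8 to 118 CPM, and in Dusp6 it was 0.679, at 4.83 CPM against 21.5 to 42.3 CPM. Among the markers it was 0.670 in Sftpc (32.7 CPM against 666 to 2915), 0.702 in Scgb1a1 (162 CPM against 2776 to 9239), 0.674 in Inmt (1.61 CPM against 78.2 to 438) and 0.721 in Gata2 (10.7 CPM against 43.1 to 72.9).

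In Timp3 the lowest normoxic library, replicate 5, stood at a distance of 0.603, at 120 CPM against 162 to 197 CPM. The same library was far below the others in total count, at a distance of 0.694 and with 1607111 counts. In Spry2 normoxia replicate 6 was the lowest, at a distance of 0.584, with 53.2 CPM against 99.9 to 156 CPM. Epgn in normoxia and Mcpt4 and Mcpt8 in hyperoxia were each seen in a single library, as 1 read, which gives a distance of 1.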

How the results depend on the processing

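Areg, Hbegf, Nrg1, Fgfr2 and Met kept their direction and their side of the threshold under every alternative that tested them. Requiring at least 10 counts in every library left 6 members to test, of which 2 were lower. Egfr reversed to a log2 fold change of -0.079 with limma-voom, -0.16 with limma on deposited values, -0.076 with library size alone, -0.057 with at least 10 counts in every library and -0.049 with the replicate block, and ran from -0.26 to 0.15 when single libraries were left out. Fgfr1 reversed to -0.056 with limma on deposited values and -0.0055 with the replicate block, and ran from -0.028 to 0.29 with single libraries left out. Dusp6 reversed to 0.0017 with DESeq2, 0.0066 with median-ratio size factors and 0.028 without a filter, and ran from -0.18 to 0.22 with single libraries left out, and Adam17 from -0.17 to 0.049. Without a filter, Hgf, Erbb2 and Sulf1 had adjusted p of 0.0645, 0.104 and 0.105 in edgeR's quasi-likelihood test. With the letter stretch as a term Fgfr3, Inmt and Sulf1 had adjusted p of 0.0517, 0.0563 and 0.0681 in that test. Leaving out single libraries gave 3 to 4 members lower and 6 to 13 pathway genes lower. The causes were not tested.

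Replicate numbers are shared between the oxygen levels. The deviations of libraries with the same number had correlations of -0.325 to 0.272, and 0 of 6 hyperoxic libraries correlated best with their own number. No pairing by number was thus seen. Deviations from the means of so few libraries, with hyperoxia replicate 1 among them, cannot exclude it. With the replicate block, 3 members were higher and 2 lower (Fgf7 and Hgf at adjusted p of 0.111 and 0.0828 in edgeR's test), as were 4 and 5 pathway genes and 718 and 626 of all genes. The pathway genes whose calls were lost with the block were Erbb2, Socs5, Flrt3, Fgfr3, Etv5, Il17rd, Sulf1 and Sulf2. Their adjusted p, and that of the marker Inmt, ran from 0.0713 to 0.143 in edgeR's test. The block uses up residual degrees of freedom. At this depth Ereg had at most 25 reads in a library, and Hgf, Nrg1 and Fgfr2 had under 10 in at least 1.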
